A study of Mus musculus with 16 samples.

Results

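The genes described here are 8 genes characteristic of neutrophils, S100a8, S100a9, Ngp, Retnlg, Cxcr2, Camp, Ltf and Csf3r, taken by name from the 30884 genes of the deposited tables. Each of the 8 names matched a single row. Their transcripts were measured in RNA of whole hearts from wild-type male C57BL/6 mice of 8 weeks, in 4 groups of 4 libraries. Doxorubicin, an anthracycline cancer drug with known cardiac toxicity, was injected intraperitoneally at 15 mg/kg, and sham mice had sterile saline. NMN (nicotinamide mononucleotide, a precursor of NAD) was injected intraperitoneally at 500 mg/kg, 30 min ahead of doxorubicin, and vehicle mice had saline. The groups are sham vehicle (saline and saline), sham NMN (NMN and saline), doxorubicin vehicle (saline and doxorubicin) and doxorubicin NMN (both agents), and the hearts were collected after 5 days.

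Neutrophils are short-lived granulocytes that leave the bone marrow, circulate in blood and enter injured tissue. They fill their granules while they mature, so that transcripts of granule proteins are most abundant in immature cells of the marrow, whereas those of S100A8, S100A9 and the receptor CXCR2 are abundant in mature cells. The marrow releases neutrophils in response to the growth factor G-CSF, which acts through the receptor encoded by Csf3r, and CXCR2 guides them towards chemokines such as CXCL1 and CXCL2.

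S100a8 and S100a9 encode the subunits of calprotectin, a calcium-binding protein complex that fills the neutrophil cytosol and acts as an alarmin when released. On GRCm38 the files place S100a8 (ENSMUSG00000056054.9) at chr3:90668978-90670035 on the plus strand and S100a9 (ENSMUSG00000056071.12) at chr3:90692632-90695721 on the minus strand, with 22.6 kb between them. Ngp, Camp and Ltf encode proteins of the specific granules and lie within 1.20 Mb of chromosome 9. Camp (ENSMUSG00000038357.10), the precursor of the antimicrobial peptide cathelicidin, spans chr9:109847379-109849617, Ngp (ENSMUSG00000032484.8), which encodes neutrophilic granule protein, chr9:110419747-110423012, and Ltf (ENSMUSG00000032496.7), the iron-binding lactotransferrin, chr9:111019271-111042767. Retnlg (ENSMUSG00000022651.6), a secreted protein of the resistin family, lies at chr16:48872621-48874496. The receptor genes are Cxcr2 (ENSMUSG00000026180.8) at chr1:74153989-74161246 and Csf3r (ENSMUSG00000028859.14) at chr4:126024550-126044440. All 8 are annotated as protein coding in GENCODE M21 at the same positions, and no other annotated gene overlaps any of them.

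RefSeq promoter windows (GRCm38.p6) were matched for all 8 genes, and the 250 bases before each RefSeq start were searched on both strands for TTGCNNAA, the core of sites bound by C/EBP factors, which direct granulocyte development. The motif was found in 4 of the 8 genes and in 9.56% of 32851 windows of the same length. The windows of those 4 genes are shown because they span both classes of pattern described next, 2 granule genes and 2 genes of mature cells. For Ngp and Ltf the window is printed only up to the gene's start in the deposited tables, which left out 61 and 21 bases and with them a further match in Ngp. Each is written 5′ to 3′ on the strand of its gene, with capitals marking the motif in either orientation and, in Ltf, also TTCCTC, the reverse of the PU.1 core GAGGAA. They cover chr3:90695722-90695971 (S100a9, minus strand), chr16:48872358-48872607 (Retnlg), chr9:110419558-110419746 (Ngp) and chr9:111019042-111019270 (Ltf), the last 3 on the plus strand.
S100a9: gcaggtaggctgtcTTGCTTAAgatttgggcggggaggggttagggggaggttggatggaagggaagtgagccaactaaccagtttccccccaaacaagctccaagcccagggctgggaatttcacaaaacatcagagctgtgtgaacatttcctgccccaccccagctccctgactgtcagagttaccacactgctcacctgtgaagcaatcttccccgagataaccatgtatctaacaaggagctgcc
Retnlg: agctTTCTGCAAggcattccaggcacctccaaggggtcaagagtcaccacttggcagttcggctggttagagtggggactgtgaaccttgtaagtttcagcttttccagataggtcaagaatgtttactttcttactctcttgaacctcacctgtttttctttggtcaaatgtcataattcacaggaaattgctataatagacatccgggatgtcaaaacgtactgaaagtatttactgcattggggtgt
Ngp: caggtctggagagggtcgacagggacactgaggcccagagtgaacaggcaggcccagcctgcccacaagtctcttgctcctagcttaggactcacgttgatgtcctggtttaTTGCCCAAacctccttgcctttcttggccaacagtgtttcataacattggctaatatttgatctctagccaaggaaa
Ltf: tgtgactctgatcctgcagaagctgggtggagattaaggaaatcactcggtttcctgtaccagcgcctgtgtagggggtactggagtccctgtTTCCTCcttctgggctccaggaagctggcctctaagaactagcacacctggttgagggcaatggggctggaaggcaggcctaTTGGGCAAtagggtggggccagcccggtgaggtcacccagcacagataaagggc
GAGGAA was found in 4 of the 8 windows (S100a8, Cxcr2, Ltf and Csf3r) and in 23.3% of all windows, and TATAAA in 1 of 8 (S100a8) and in 12.4%. Camp held none of the 3 motifs in its window. These matches describe letters only and say nothing of binding in these hearts.

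Each library totalled between 13.9 M and 16.4 M counts, and 3 counts, the limit that a count of 0 allows, stood for 0.183 to 0.215 CPM (counts scaled to a common library total), and such limits and all intervals cover counting error only. Nothing in the labels tells whether the numbered replicates were separate mice, and p-values here reflect only how these libraries vary. Cardiomyocyte markers (6 genes) summed to 48474 to 54331 CPM in the sham libraries, 13620 to 19068 in doxorubicin vehicle and 26327 to 48603 in doxorubicin NMN. Libraries stood apart in the neutrophil genes within each group. Replicate 2 was the highest of its group for 6 of 8 genes in sham vehicle and for 8 of 8 in sham NMN, and it also had the highest summed platelet markers, 17.1 CPM against 8.0 to 12.2 in the other sham vehicle libraries and 15.0 against 5.8 to 10.3 in the other sham NMN libraries. Erythroid markers of replicate 2 were not the highest in either group, at 523.1 CPM in sham vehicle and 232.4, the lowest, in sham NMN. Replicate 1 was the highest in doxorubicin vehicle for 6 of 8 genes and replicate 2 the lowest for 6 of 8. Replicate 3 of doxorubicin NMN had 319.5 CPM of erythroid markers against 0.4 to 4.9 in the other 3 of its group and 232.4 to 550.0 in the sham libraries, while its 8 neutrophil genes summed to 5.67 CPM, inside its group's range. The libraries also fell into parts, known from earlier results of these data, by the level of Scand1, Cox11 and Mrps34. The second part held replicates 3 and 4 of both vehicle groups and replicate 4 of both NMN groups, and values within each part are given below.

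The first comparison, doxorubicin vehicle against sham vehicle, gave the response of these genes to the drug. Of the 7 genes with enough counts to be tested, 6 rose by edgeR's quasi-likelihood test (adjusted p under 0.05, Benjamini-Hochberg over 14716 genes) and 0 fell. Among all tested genes 24.7% rose and 23.9% fell, and the median log2 fold was 0.01, against 4.06 over the 7 genes. Libraries of the groups did not overlap for 5 of the 8 genes, all higher with doxorubicin, a pattern that 21.7% of all tested genes had. Ngp, Retnlg and Cxcr2 had 28, 12 and 9 counts over sham vehicle and 480, 547 and 149 over doxorubicin vehicle. Ltf had 20 and 104. Ngp, Retnlg and Cxcr2 passed the expression filter through the latter group, and Ltf mainly so, which favoured a rise in advance. In whole-heart RNA, more cells of a type and more RNA per cell cannot be told apart.

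S100a8 had 9, 10, 0 and 4 counts in replicates 1 to 4 of sham vehicle and 345, 121, 147 and 167 in doxorubicin vehicle. Its mean rose from 0.369 ± 0.304 to 12.4 ± 6.73 CPM (SD, n = 4 libraries each), a log2 fold of 5.05 (SE 0.75, adjusted p = 9.4e-05). Every doxorubicin library lay above every sham library, with replicate 1 the highest by far. S100a9, its partner, had 15, 37, 4 and 4 counts in sham vehicle and 615, 202, 280 and 280 in doxorubicin vehicle, and rose from 0.977 ± 1.05 to 21.9 ± 12.2 CPM (log2 fold 4.49, SE 0.86, adjusted p = 7.9e-04). Again the groups did not overlap, and without replicate 2 of sham vehicle the log2 fold was 5.48. The count of S100a9 was 1.67 to 1.90 times that of S100a8 in each doxorubicin vehicle library, so both subunits kept nearly one proportion while their levels differed between libraries.

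**Figure D1:**
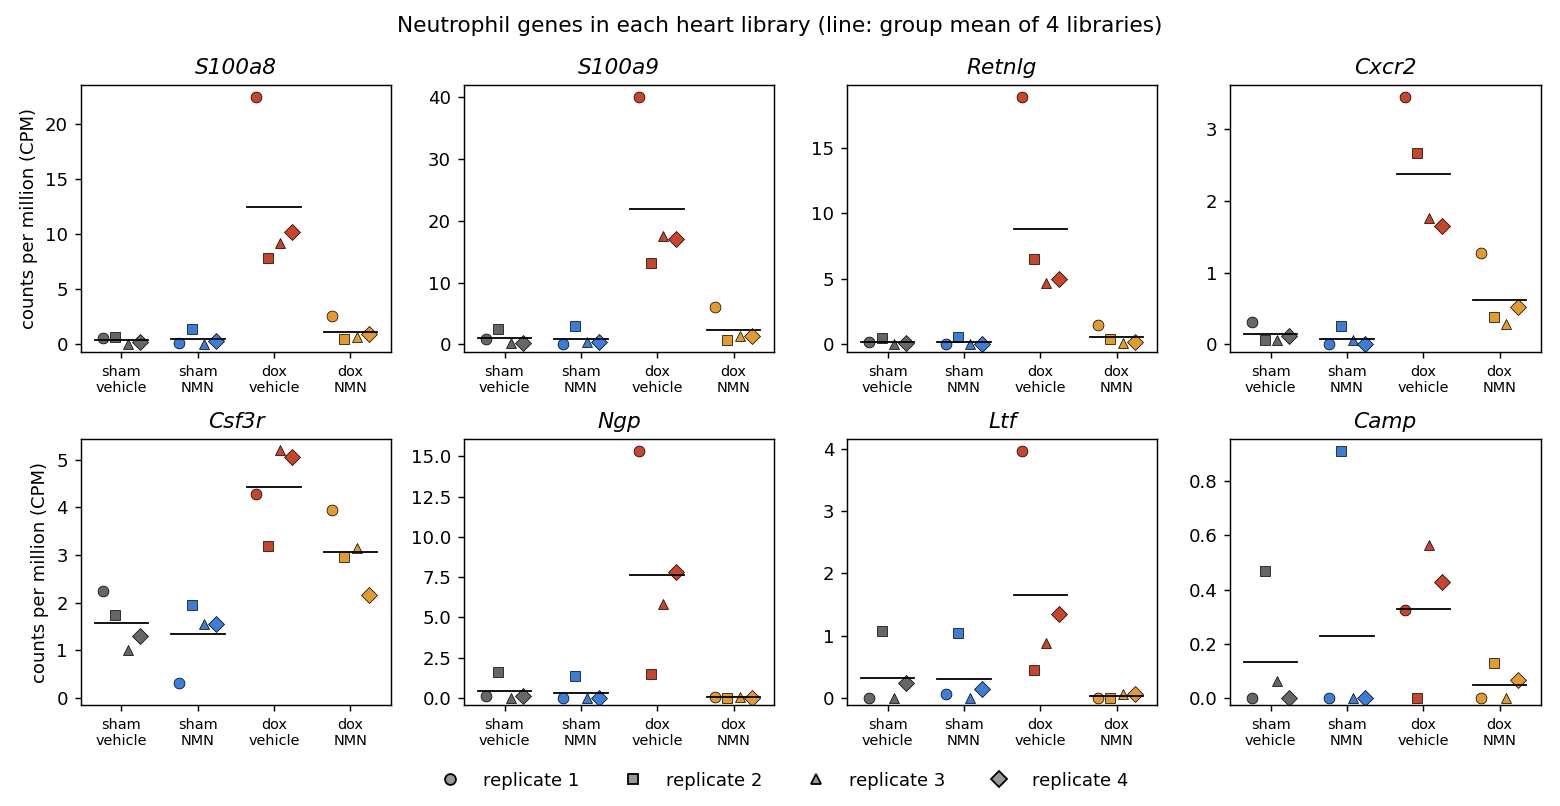
Level of each of the 8 neutrophil genes in CPM (y axis, linear, a separate scale per gene) in the 4 groups (x axis). Points are single libraries with 1 symbol per replicate number, and lines are means of 4 libraries. S100a8 in doxorubicin vehicle lies between 7.88 and 22.4 CPM, above all other libraries, whereas Csf3r differs less between the groups.

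Ngp had 2, 24, 0 and 2 counts in sham vehicle and 236, 23, 93 and 128 in doxorubicin vehicle. It rose from 0.463 ± 0.763 to 7.62 ± 5.78 CPM (log2 fold 4.06, SE 1.05, adjusted p = 0.00547), but replicate 2 of doxorubicin vehicle, at 1.50 CPM, lay just below replicate 2 of sham vehicle, at 1.60 CPM. Without replicate 2 of sham vehicle the log2 fold of Ngp was 6.38, and over all single libraries left out it ran from 3.52 to 6.38. Ltf had 0, 16, 0 and 4 counts in sham vehicle and 61, 7, 14 and 22 in doxorubicin vehicle. Its groups overlapped, and its log2 fold of 2.33 (SE 0.98) did not pass (adjusted p = 0.0615). It passed without replicate 2 of sham vehicle (log2 fold 4.17, adjusted p = 0.0102). Camp had too few counts for the test, with 0, 7, 1 and 0 in sham vehicle and 5, 0, 9 and 7 in doxorubicin vehicle. Its mean was 0.133 ± 0.225 and 0.329 ± 0.240 CPM, and an exact two-sided permutation test of the difference, which cannot go below 0.0286 with 4 against 4, gave p = 0.371.

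Retnlg had 3, 7, 0 and 2 counts in sham vehicle and 290, 100, 75 and 82 in doxorubicin vehicle, and rose from 0.195 ± 0.198 to 8.76 ± 6.76 CPM. Its log2 fold of 5.43 (SE 0.85, adjusted p = 1.4e-04) was the highest of the 7, and it came to 6.26 without replicate 2 of sham vehicle and to 4.77 without replicate 1 of doxorubicin vehicle. Cxcr2 had 5, 1, 1 and 2 counts in sham vehicle and 53, 41, 28 and 27 in doxorubicin vehicle, a rise from 0.141 ± 0.117 to 2.38 ± 0.845 CPM (log2 fold 3.96, SE 0.60, adjusted p = 7.2e-05), or 4.65 without replicate 1 of sham vehicle. Csf3r, which other myeloid cells also transcribe, was present in every sham library, with 36, 26, 16 and 21 counts, and had 66, 49, 83 and 83 in doxorubicin vehicle. It rose from 1.57 ± 0.540 to 4.44 ± 0.922 CPM, the smallest of the 6 called folds (log2 fold 1.50, SE 0.36, adjusted p = 0.00249). All 4 doxorubicin libraries lay above all 4 sham libraries for each of these 3 genes.

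Within the parts of the split the folds kept their direction. In the second part, 7 of 7 tested genes rose, with S100a8 at a log2 fold of 6.25 and Csf3r at 2.20. In the first part, which holds the high replicate 2 of sham vehicle, 3 of 7 rose (Retnlg 5.20, S100a8 4.55 and Cxcr2 3.87), and S100a9 (3.91, adjusted p = 0.0671), Ngp (3.25, adjusted p = 0.164), Ltf (2.01, adjusted p = 0.356) and Csf3r (0.84, adjusted p = 0.205) did not pass with edgeR.

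Levels of different genes were compared per length, as FPKM, which divide the count by gene length and library size. In doxorubicin vehicle S100a9 was at 42.0 ± 23.3 FPKM, S100a8 at 17.9 ± 9.69, Retnlg at 14.8 ± 11.4 and Ngp at 6.23 ± 4.73 (SD, n = 4). Csf3r at 1.23 ± 0.256, Cxcr2 at 0.780 ± 0.277, Ltf at 0.481 ± 0.457 and Camp at 0.434 ± 0.317 FPKM followed. The ranges of the libraries overlapped between each pair of neighbours in this order. Within each doxorubicin vehicle library, however, the genes from S100a9 to Cxcr2 kept it. In sham vehicle the order was S100a9 (1.87 ± 2.01), S100a8 (0.532 ± 0.438), Csf3r (0.436 ± 0.150), Ngp (0.379 ± 0.625), Retnlg (0.328 ± 0.334), Camp (0.175 ± 0.297), Ltf (0.0954 ± 0.147) and Cxcr2 (0.0464 ± 0.0384 FPKM), again with overlap between all neighbours.

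Doxorubicin NMN against doxorubicin vehicle asked how the same genes stood when NMN preceded the drug. Of the 7 tested genes 6 fell and 0 rose, where 18.7% of all tested genes fell and 17.4% rose. The median log2 fold of the 7 was -3.44, against 0.00 over all tested genes. For 6 of the 8 genes all libraries with NMN lay below all libraries without it, as for 14.0% of all tested genes. Ngp, Retnlg and Cxcr2 passed the expression filter through doxorubicin vehicle, and Ltf mainly so, which favoured a fall in this comparison.

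S100a8 had 37, 7, 9 and 14 counts in replicates 1 to 4 of doxorubicin NMN, a mean of 1.16 ± 0.989 CPM, and fell by 3.44 on the log2 scale (SE 0.65, adjusted p = 0.00115 by edgeR). S100a9 had 86, 11, 18 and 21 counts (2.36 ± 2.49 CPM) and fell by 3.25 (SE 0.78, adjusted p = 0.00588). In both, replicate 1 was the highest of its group but lay below the lowest doxorubicin vehicle library. Without it the log2 folds were -4.18 for S100a8 and -4.26 for S100a9, and that of Retnlg, described below, was -4.97. Without replicate 1 of doxorubicin vehicle Retnlg came to -3.28 and Ltf to -4.47.

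Ngp, Ltf and Camp had at most 2 counts in any doxorubicin NMN library. This did not hold for all granule genes, since Mmp8 and Mmp9, described below, had 31 and 79 counts over that group. Itgb2l, another, had 0. Ngp had 1, 0, 1 and 0 counts in doxorubicin NMN, against 480 counts over the doxorubicin vehicle libraries, and its log2 fold was -7.52 (SE 1.51, adjusted p = 0.00184). The pooled ratio of doxorubicin vehicle to doxorubicin NMN was 224, with a counting interval of 61.7 to 1856 at 95%. Ltf had 0, 0, 1 and 1 counts against 104 in all, a ratio of 48.6 (13.1 to 406), and fell by 5.31 (SE 1.41, adjusted p = 0.00886). Camp, untested by edgeR, had 0, 2, 0 and 1 counts against 21 in all, a ratio of 6.54 (1.95 to 34.2), and its groups overlapped (exact permutation p = 0.143).

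Retnlg had 21, 7, 2 and 3 counts in doxorubicin NMN (0.568 ± 0.624 CPM) and fell by 3.94 (SE 0.74, adjusted p = 0.00106). Cxcr2 had 18, 6, 4 and 8 counts (0.617 ± 0.446 CPM) and fell by 1.94 (SE 0.50, adjusted p = 0.00628). Neither overlapped with doxorubicin vehicle. Csf3r had 56, 46, 44 and 33 counts, or 3.06 ± 0.739 CPM, against 4.44 ± 0.922 in doxorubicin vehicle. Its libraries overlapped with that group, and a log2 fold of -0.57 (SE 0.34) did not pass (adjusted p = 0.201 by edgeR).

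**Figure D2:**
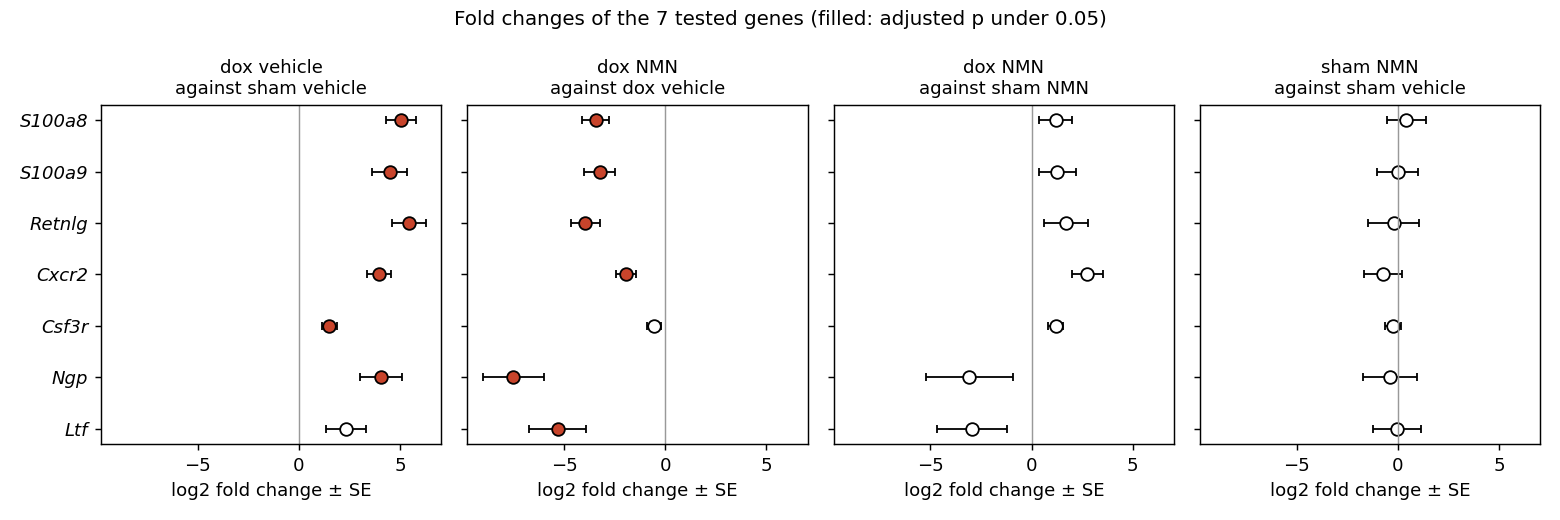
Log2 fold change (x axis) with its standard error (bars) for the 7 tested neutrophil genes (y axis) in 4 comparisons of groups, by edgeR over 16 libraries. Filled points have an adjusted p under 0.05. In doxorubicin vehicle against sham vehicle 6 are filled and positive, in doxorubicin NMN against doxorubicin vehicle 6 are filled and negative, and none is filled in the comparisons within NMN or within sham.

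Leaving out any 1 library kept 6 genes called lower. Without replicate 3 of doxorubicin NMN, whose erythroid markers were at the level of sham, S100a8 fell by 3.26 (adjusted p = 0.00585) and Ngp by 8.00 (adjusted p = 0.00764 by edgeR). In the first part 4 of 7 fell, without S100a9 (-3.29, adjusted p = 0.0726) and Ltf (-6.12, adjusted p = 0.0724). In the second part, with a single doxorubicin NMN library, 7 of 7 fell, Csf3r among them (-1.27, adjusted p = 0.0065).

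The granule genes among the 8 also took different shares of the 8 genes' counts. Ngp, Camp and Ltf together were 605 of 3739 counts in doxorubicin vehicle, or 16.2% (exact 95% binomial interval 15.0% to 17.4%), and 7 of 458 in doxorubicin NMN, or 1.53% (0.617% to 3.12%). By library the share ran from 5.52% to 19.7% in doxorubicin vehicle and from 0.457% to 2.53% in doxorubicin NMN, so these groups did not overlap. In the sham groups it was 21.6% (56 of 259 counts) and 22.8% (54 of 237 counts), and replicate 2 gave 47 of the 56 and 51 of the 54. By library the share ran from 2.86% to 36.7% in sham vehicle and from 0% to 31.7% in sham NMN, the latter overlapping doxorubicin NMN. Csf3r, which other myeloid cells also transcribe, was 179 of the 458 counts in doxorubicin NMN and 281 of the 3739 in doxorubicin vehicle. Replicate 2 of doxorubicin vehicle had the lowest share of its group, with 30 of 543 counts. The summed level of all 8 genes was 59.5 ± 33.2 CPM with doxorubicin alone and 7.88 ± 5.06 with NMN before it, against 4.18 ± 3.17 in the sham mice without NMN and 3.92 ± 4.45 in those with it (SD, n = 4 libraries each).

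**Figure D3:**
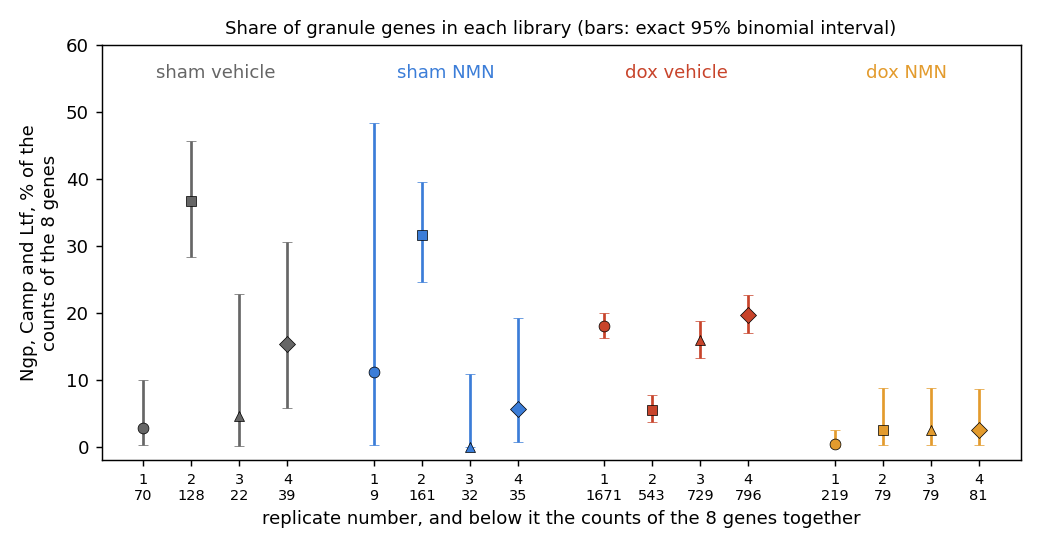
Counts of Ngp, Camp and Ltf as a percentage of the counts of the 8 neutrophil genes (y axis) in each of the 16 libraries (x axis, with the replicate number and the counts of the 8 genes below it). Bars are exact 95% binomial intervals, which cover counting error only. The 4 doxorubicin NMN libraries lie between 0.457% and 2.53%, and replicate 2 stands high in both sham groups, at 36.7% and 31.7%.

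In sham mice, NMN alone was not followed by a called change. Of the 7 tested genes 0 passed in sham NMN against sham vehicle by edgeR, 0 had an unadjusted p under 0.05, and DESeq2 and limma-voom called 0. Of all tested genes 0% were called higher and 0% lower, with 332 at an unadjusted p under 0.05. S100a8 had 2, 22, 1 and 5 counts in sham NMN and S100a9 1, 45, 6 and 6. Ngp had 0, 21, 0 and 0, Camp 0, 14, 0 and 0, and Ltf 1, 16, 0 and 2 counts, so that the granule genes came almost wholly from replicate 2. Retnlg had 0, 9, 1 and 0, Cxcr2 0, 4, 1 and 0, and Csf3r 5, 30, 23 and 22 counts. Groups overlapped for all 8 genes, and log2 folds ran from 0.42 (S100a8, SE 0.94) to -0.74 (Cxcr2, SE 0.93).

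Doxorubicin NMN against sham NMN gave the drug effect in mice that had received NMN. By edgeR 0 of 7 genes were called, as were 0% of all tested genes in each direction, while 2 of the 7 and 1205 of all genes had an unadjusted p under 0.05. DESeq2 and limma-voom also called 0 of the 7. The 2 were the receptors. Cxcr2 was at 0.617 ± 0.446 CPM in doxorubicin NMN and 0.0819 ± 0.123 in sham NMN (log2 fold 2.76, SE 0.75, adjusted p = 0.412), and Csf3r at 3.06 ± 0.739 and 1.34 ± 0.710 CPM (log2 fold 1.18, SE 0.37, adjusted p = 0.501). For both, the 4 doxorubicin NMN libraries lay above the 4 sham NMN libraries, as for 3.15% of all tested genes, and the exact two-sided permutation p of 0.0286, unadjusted, is the smallest that the design allows. S100a8 (log2 fold 1.18, SE 0.81), S100a9 (1.26, SE 0.92), Retnlg (1.70, SE 1.08), Ngp (-3.07, SE 2.13) and Ltf (-2.93, SE 1.74) overlapped between the groups. The negative fold of Ngp rests on replicate 2 of sham NMN, without which every count in both groups was at most 1.

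The interaction asked whether the drug's fold differed between mice with and without NMN. It was called for 2 of the 7 genes, S100a8 (-3.86, SE 1.16, adjusted p = 0.0329) and Ngp (-7.13, SE 2.27, adjusted p = 0.0427), both lower with NMN, where 8.80% of all tested genes were called lower and 9.23% higher. S100a9 (-3.23, adjusted p = 0.0921), Retnlg (-3.73, adjusted p = 0.115), Ltf (-5.26, adjusted p = 0.0734), Cxcr2 (-1.20, adjusted p = 0.503) and Csf3r (-0.32, adjusted p = 0.694) did not pass. Ngp, Retnlg and Cxcr2 passed the expression filter through doxorubicin vehicle, and Ltf mainly so, which favoured a negative interaction for them. The count of called genes was unstable. Without replicate 2 of sham NMN 0 genes were called, and S100a8 came to -2.43 (adjusted p = 0.233) and Ngp to -1.70 (adjusted p = 0.92). Without replicate 2 of sham vehicle the count was 4 and Ngp came to -9.46, and without replicate 1 of doxorubicin NMN S100a8 came to -4.59. It was also 0 without replicate 3 or 4 of sham vehicle, replicate 4 of doxorubicin vehicle, or replicate 2 or 3 of doxorubicin NMN. It was 1 without replicate 1 of sham vehicle, 1 or 3 of doxorubicin vehicle, or 4 of doxorubicin NMN, and limma-voom called 0.

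Other neutrophil transcripts were described from lists chosen with earlier results of these data known. Their counts stand beside the shares of all tested genes, of which 24.7% rose and 23.9% fell with doxorubicin and 17.4% rose and 18.7% fell with NMN. Of 10 other genes of specific and gelatinase granules 8 were tested, and 5 rose and 0 fell with doxorubicin (median log2 fold 2.07). Lcn2, the iron-scavenging lipocalin-2, which other cell types make too, rose from 4.70 ± 0.851 to 105.2 ± 20.7 CPM (log2 fold 4.46, SE 0.41). Mmp8, neutrophil collagenase (log2 fold 6.18, SE 0.94), Chil3, a chitinase-like protein also made by monocytes (4.80, SE 0.79), and Mmp9, gelatinase B (2.77, SE 0.57), rose as well. In doxorubicin NMN against doxorubicin vehicle 6 of the 8 fell and 0 rose (median -1.72), with Lcn2 at -4.75 (SE 0.42). Among 18 other genes of mature neutrophils 11 were tested, and 10 rose and 0 fell with doxorubicin (median 3.57), then 8 fell and 0 rose with NMN (median -2.26). They included Clec4e, the lectin receptor Mincle (6.10, SE 0.89), Il1r2, a decoy receptor for interleukin-1 (5.49, SE 0.89), Asprv1, an aspartic protease (5.06, SE 0.66), and Fpr1, a receptor for formylated peptides (3.98, SE 0.73). These 4 genes and Mmp8 had 3 to 6 counts over sham vehicle and 102 to 405 over doxorubicin vehicle. Genes so low in sham reached the test through doxorubicin vehicle, so their rise there and fall with NMN were favoured in advance. Ly6g, the surface antigen that defines mouse neutrophils, had 23 counts over doxorubicin vehicle and 0 in each of the other groups.

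Azurophil granule genes, which are transcribed in promyelocytes of the marrow, did not reach the test. Mpo, Elane, Prtn3, Ctsg, Ms4a3 and Fcnb had at most 6 counts in any group, and their summed level was at most 0.3 CPM in the doxorubicin vehicle libraries. The highest sums were 0.8 and 0.5 CPM, in replicate 2 of sham NMN and of sham vehicle. At this depth no difference was detectable.

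Of 4 tested transcription factors of the lineage 2 rose and 0 fell with doxorubicin (median 0.68). Of all tested genes 24.7% rose and 23.9% fell with doxorubicin. Cebpd, a C/EBP factor that many cell types induce in inflammation, rose by 2.55 on the log2 scale (SE 0.46), with 9.61 ± 7.50 CPM in sham vehicle and 55.4 ± 13.4 in doxorubicin vehicle. Cebpb rose too (1.22, SE 0.49, adjusted p = 0.0479 by edgeR). Cebpa (-0.22, SE 0.22) and Spi1, which encodes PU.1 (0.15, SE 0.24), did not pass. With NMN 1 of the 4 fell, Cebpd (-1.59, SE 0.44), where 18.7% of all tested genes fell. Among attractants 4 of 10 measured genes were tested, and 2 rose and 2 fell with doxorubicin (median 1.45). Cxcl1 (log2 fold 3.52) and Cxcl2 (4.54, SE 0.89) rose, and Ppbp, a platelet chemokine (-2.97, SE 1.11), and Cxcl12, which retains neutrophils in the marrow (-0.61, SE 0.22), fell. Ppbp was uneven in sham vehicle, at 2.29 ± 3.31 CPM with libraries from 0.187 to 7.22 CPM. With NMN Cxcl1 (-2.95, SE 0.44) and Cxcl2 (-5.01, SE 0.94) fell and Cxcl12 rose (0.67, SE 0.22). Cxcl2 had 12, 5 and 8 counts over sham vehicle, sham NMN and doxorubicin NMN, and 285 over doxorubicin vehicle. It reached the test through that last group, which favoured its rise and its fall. Csf3, which encodes G-CSF, was untested, with 25 counts over doxorubicin vehicle and 0 or 1 in each other group.

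Of 7 endothelial adhesion genes 3 rose and 2 fell with doxorubicin (median 0.53), then 4 fell and 2 rose with NMN (median -0.47), where 24.7% and 23.9% of all tested genes rose and fell with doxorubicin. Counts as low as 3 and 2 of 7 are near those shares. Icam1, a ligand of leukocyte integrins, rose by 1.70 (SE 0.26), Selp, which encodes P-selectin, by 3.26 (SE 0.81) and Pecam1 by 0.53 (SE 0.14), and Jam3, a junctional adhesion molecule, fell by 0.58 (SE 0.14). Of 7 receptors and partners of S100A8 and S100A9, 5 rose and 0 fell with doxorubicin (median 1.31) and 5 fell and 0 rose with NMN (median -1.04). Tlr4, the lipopolysaccharide receptor, rose by 1.58 (SE 0.18), its adaptor Myd88 by 1.31 (SE 0.14), Ager, which encodes RAGE, by 2.65 (SE 0.50), and the fatty acid transporter Cd36, abundant in heart muscle, by 0.89 (SE 0.16). Ager had 22, 16 and 32 counts over sham vehicle, sham NMN and doxorubicin NMN, and 139 over doxorubicin vehicle. It reached the test mainly through that last group, which favoured its rise. All these folds are from the same edgeR fit.

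Markers of other cells were set beside these genes. The 5 markers shared by all leukocytes, among them Ptprc, had a summed level of 25.6 to 45.2 CPM over the 16 libraries, and none was called in either comparison with doxorubicin vehicle, with median log2 folds of 0.22 and -0.30. Of all tested genes 24.7% rose and 23.9% fell with doxorubicin. Macrophage markers (11 genes) summed to 168.9 to 280.3 CPM, and 1 rose and 3 fell with doxorubicin. A fall of 3 of 11 is near the share of all genes. Monocyte markers summed to 45.9 to 67.6 CPM in doxorubicin vehicle and 53.5 to 75.7 in sham vehicle, and of 4 tested 1 rose (Chil3, also counted above) and 2 fell. F13a1 and Vcan gave 41.3 and 20.3 CPM of the mean sum of 65.7 in sham vehicle. The untested Ly6c2 went the other way, with 15, 78 and 17 counts over sham vehicle, doxorubicin vehicle and doxorubicin NMN. Plac8, also untested, had 20, 50 and 15. B cell markers summed to 0.8 to 1.7 CPM in doxorubicin vehicle and 8.2 to 11.3 in sham vehicle, and 5 of 5 tested erythroid genes fell. In doxorubicin NMN B cell markers summed to 5.2 to 7.7 CPM and monocyte markers to 36.9 to 63.5. Summed T cell and mast cell markers were at most 3.9 and 10.5 CPM in any library. The 4 eosinophil markers, none of them tested by edgeR, summed to 0.260 to 1.38 CPM in doxorubicin vehicle, above 0 to 0.195 in the sham libraries, and had 0 counts in all 4 doxorubicin NMN libraries. Prg2, which encodes the eosinophil major basic protein, had 41 counts over doxorubicin vehicle and 2, 2 and 0 over sham vehicle, sham NMN and doxorubicin NMN, while Epx and Ccr3 had 0 in doxorubicin vehicle. The part of these other cells in the neutrophil results was not tested.

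**Figure D4:**
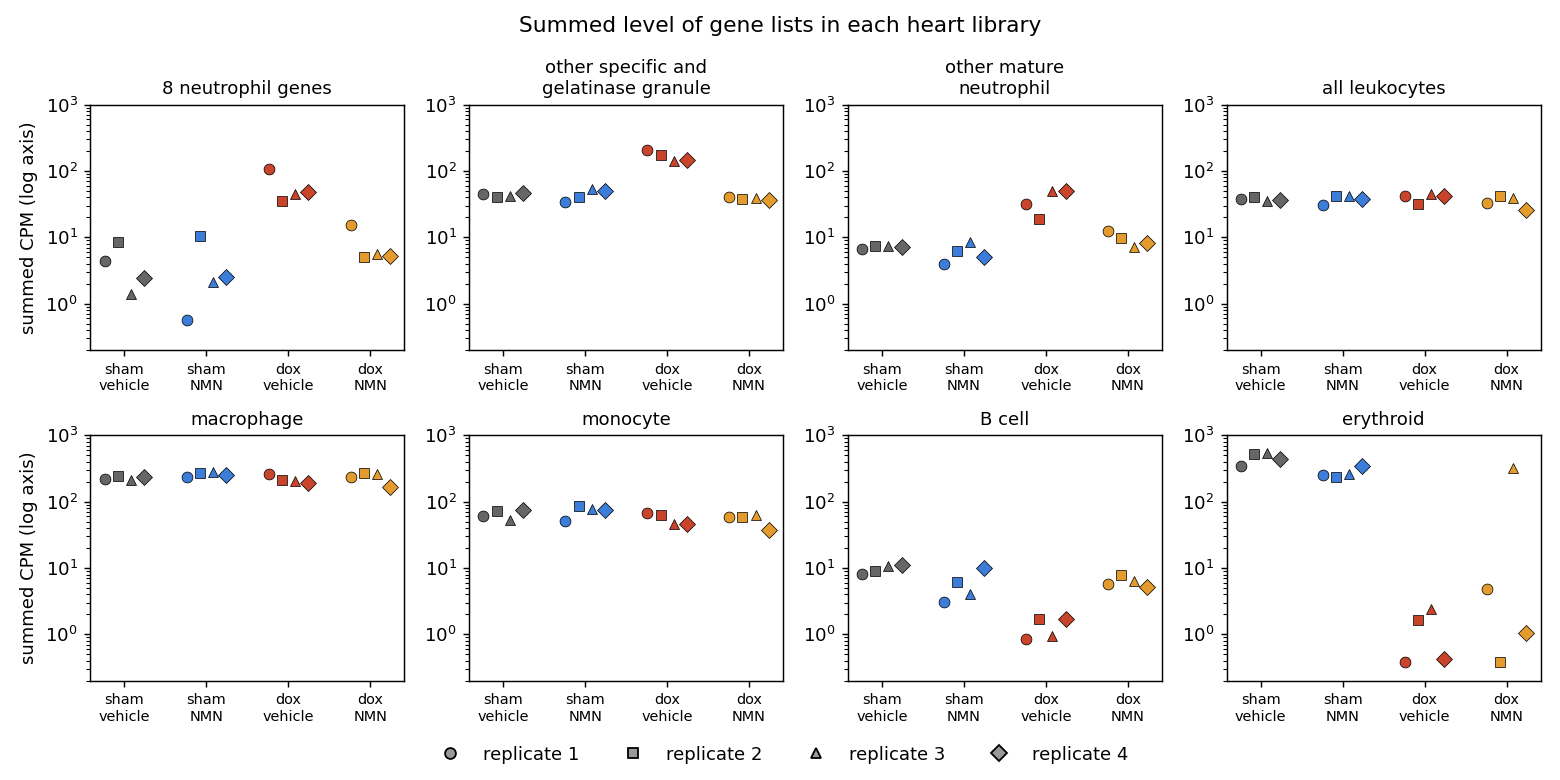
Summed CPM (y axis, log scale) of the 8 neutrophil genes, of 2 lists of other neutrophil genes and of 5 lists of markers of other blood cells, in each library of the 4 groups (x axis), with 1 symbol per replicate number. The neutrophil lists stand high in doxorubicin vehicle, where the 8 genes sum to 35.4 to 108.5 CPM, whereas the markers of all leukocytes stay between 25.6 and 45.2 CPM and the erythroid markers are low in all doxorubicin libraries but 1. In the granule list Lcn2, which other cell types make too, gave 105.2 of a mean sum of 168.8 CPM in doxorubicin vehicle. In sham vehicle Anxa1 gave 20.3 of 43.1 CPM.

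The genes whose pattern over the 16 libraries was most like the mean of S100a8, S100a9, Retnlg, Cxcr2 and Csf3r, by Pearson's r of log2 CPM over 14709 genes, were Ddx39b (0.951), Mmp8 (0.940), Scaf8 (0.937), Zfp869 (0.937) and Rab3gap1 (0.932). For the mean of Ngp, Camp and Ltf they were Gadd45b (0.875), Ifitm6 (0.856), Gm15832 (0.854), Nadk2 (0.840) and Fam219a (0.827). Mmp8 is itself a neutrophil granule gene, whereas Ddx39b, an RNA helicase of messenger export, was at 77.2 ± 6.91 CPM in sham vehicle and 134.6 ± 8.28 in doxorubicin vehicle. These values are a description, since all libraries share the 4 groups and many genes differ between them.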

How the data were processed

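Per the labels' protocols, TRIzol RNA went into NEBNext Ultra RNA libraries, a kit without strand information. Per the submitters' processing notes, HISAT2 2.1.0, HTSeq 0.6.0 and GRCm38 were used. The sources used here do not give the annotation release, the strand setting or filters on reads. The authors deposited raw counts per gene and FPKM for the same 30884 genes, and the deposited FPKM equal the counts divided by library total and gene length (largest relative deviation 1.42e-13).

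Groups were taken from the labels, and CPM used each library's total. Counts were tested in R 4.3.3 with edgeR 4.0.16 (TMM scaling, the default expression filter, robust quasi-likelihood over all 16 libraries, common dispersion 0.0377), which left 14716 genes and 7 of the 8. Camp failed the filter. P-values were adjusted by Benjamini-Hochberg over all tested genes. Each log2 fold carries its standard error (SE). Differences of mean CPM were tested by exact two-sided permutation, unadjusted, over 70 assignments. Pooled ratios are summed counts per summed library total and carry exact binomial intervals at 95%. Promoter windows are from RefSeq, and Python 3.11.15 with SciPy 1.17.1 was used. The steps were tested on simulated data. Replicates of a group differed beyond sampling noise in every pair.

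The 8 genes and all lists were chosen with earlier results of these data known. From each list up to 4 genes with the smallest p in doxorubicin vehicle against sham vehicle are named. The few others named (Ly6g, Csf3, Ptprc, Prg2, Epx, Ccr3, Ly6c2, Plac8, Itgb2l, the azurophil genes) were chosen after their values were seen. Of the list genes 4 were not found in the tables. Likeness used a prior count of 2. Alternatives were other scalings, filters, tools (DESeq2 1.42.0, limma 3.58.1), FPKM on the log2(value + 0.1) and log2(value + 1) scales, a fit of the compared groups alone, the replicate number as a block, the split of the libraries, and leaving out each library. After the data were seen, leaving out both sham libraries numbered 2 and a spread without robust weights were added.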

Additional observations from a re-analysis of the deposited data

Results flagged for a closer look

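In 12 of 36 groups of 4 libraries examined, 1 library lay far from the other 3, where normally distributed values give about 5%. Many of these groups hold low counts with several 0, which are not so distributed, so the 5% is no measure of chance here. Since the 8 genes share libraries, these are not independent. Replicate 1 of doxorubicin vehicle stood high in S100a8 (22.4 CPM), S100a9 (40.0 CPM) and Retnlg (18.8 CPM). Replicate 2 of sham NMN stood high in S100a9 (2.93 CPM), Ngp (1.37 CPM), Retnlg (0.586 CPM), Camp (0.912 CPM) and Ltf (1.04 CPM), and replicate 2 of sham vehicle in Ngp (1.60 CPM) and Camp (0.468 CPM). Replicate 1 of doxorubicin NMN stood high in S100a9 (6.07 CPM) and in the sum of the 8 genes (15.5 CPM).

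The drug's log2 fold differed between mice with and without NMN, by edgeR's interaction term with Benjamini-Hochberg adjustment, for S100a8 (-3.86, adjusted p = 0.0329) and Ngp (-7.13, adjusted p = 0.0427). For both genes the call was lost when replicate 2 of sham NMN was left out. Ngp reached the test through doxorubicin vehicle, which favoured a negative interaction.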

How the results depend on the processing

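In doxorubicin vehicle against sham vehicle 3 to 7 of the 7 genes were called higher over 31 alternatives (6 to 7 when 1 library was left out, 3 within the first part), and in doxorubicin NMN against doxorubicin vehicle 4 to 7 were called lower. In sham NMN against sham vehicle 0 were called under every alternative, and in doxorubicin NMN against sham NMN 0 except within the second part, where 2 were. The interaction was the least stable, with 2 genes called, 0 with no filter, 0 by limma-voom, 5 on FPKM with a pseudocount of 1, 0 within the first part, 0 without both sham libraries numbered 2, and 0 to 4 when 1 library was left out. Its log2 folds for S100a8 and Ngp stayed negative throughout but lost the call in 10 and 16 of 30 alternatives. The cause was not tested.

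Signs turned only for folds that were not called. In sham NMN against sham vehicle, leaving out 1 library gave -1.01 to 0.84 for S100a8, -1.71 to 0.97 for S100a9, -5.82 to 1.94 for Ngp, -2.72 to 0.61 for Retnlg, -2.15 to 1.80 for Ltf and -0.50 to 0.077 for Csf3r. S100a8 was -0.16 within the first part and -0.59 without both sham libraries numbered 2, S100a9 0.67, Ltf 0.10 and Csf3r 0.35 within the second part, and Ltf 0.26 by limma-voom. In doxorubicin NMN against sham NMN, Ngp ran from -3.55 to 2.36 when 1 library was left out and was 2.36 without both sham libraries numbered 2, and differences of mean CPM ran from -0.42 to 0.036 for Ngp and from -0.26 to 0.049 for Camp. In the interaction Cxcr2 was 1.94 within the second part, 0.59 without both sham libraries numbered 2 and -1.89 to 0.38 when 1 library was left out, and Csf3r 0.53 within the first part. Within the second part both libraries had 0 counts of Ngp in doxorubicin NMN against sham NMN, which gave no fold. Ltf with doxorubicin was called in 10 of 31 alternatives.

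The replicate numbers gave no general pairing of the libraries. Of 24 same-numbered pairs 5 had a correlation over 0.1 (-0.116 to 0.405), and in 8 of 24 a library correlated best with its own number. Most of the pairs of replicate 4 were among these, at 0.405 between the sham groups and 0.234 between the doxorubicin groups. Replicate 4 lay in the second part in all 4 groups. Replicate 2 of the sham groups gave 0.218. Whether same-numbered libraries shared a source was not tested. The fit with the replicate block called 7 genes higher with doxorubicin, 6 lower with NMN, 0 and 0 in the other pairs of groups and 2 in the interaction, and turned S100a9 in sham NMN against sham vehicle to 0.030. With 1 library left in an arm, its spread is assumed to be that of the other groups. With counts of 0 to 24 in most sham libraries, depth limits all folds against sham.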
